A study of Mus musculus with 12 samples.

Results

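The pulldown of tagged ribosomes from injured dorsal root ganglia was compared with the input RNA of injured ganglia, over all 101744 mouse transcripts that the deposited table lists. The comparison used every transcript and the 6 injured samples of the 12 in the series, 3 immunoprecipitated (IP) and 3 input. Of the listed transcripts, 28928 had a count in at least 1 of these 6 samples. All mice of the series, in injured and uninjured groups alike, carried the genotype RPL22HA+/+;Advillin-Cre+, and the injured group had a sciatic nerve injury. The sources used here do not give the injury time, the age and number of animals or any pooling of ganglia. The labels describe input as total RNA, although the extraction text attached to those samples speaks of the anti-HA pulldown, so the preparation of the input is uncertain.

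RiboTag is a way to isolate the messenger RNA that one cell type is translating inside a mixed tissue. Cre recombinase switches a large-subunit ribosomal protein, Rpl22, to a form with a haemagglutinin (HA) tag, and an anti-HA antibody then recovers ribosomes with the RNA bound to them. Advillin-Cre is active in peripheral sensory neurons, which share the ganglion with satellite glia, Schwann cells, fibroblasts, vessels and immune cells. A transcript with a higher share in IP than in input is called enriched in such experiments, and RNA of cells that lack the tag would be depleted. A sciatic nerve injury damages the axons of some of these neurons, whose cell bodies in the ganglion are known to respond with a programme of stress and regrowth genes. The model depends on where the Cre is active and on how much untagged RNA the beads carry over. The files do not pair transcript IDs with genes, and 0 of the IDs matched the gene tables used here. Markers of neurons and of the other cell types and the tagged gene itself were therefore not checked, and transcripts are described by their ID or by their values.

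The labels list 3 separate samples per group, but their totals were almost the same and most transcripts varied little between them. Totals were 190594 to 190702 estimated counts in the IP samples and 1584104 to 1585381 in the input samples. The median spread, over transcripts averaging 300 counts or more in a sample, was 0.945 times counting noise in IP (40 transcripts) and 1.34 times in input (727). It was 1.65 times in IP at 100 to 300 counts (128 transcripts) and 1.24 and 1.42 times in IP and input at 10 to 30 counts, where 9.23% and 14% of transcripts differed beyond counting noise (chi-square p under 0.01). The 3 samples of a group were summed, counted as 1 sample and are called portions. Whether they are portions of 1 library was not settled. The sums were 571897 counts in IP and 4753793 in input, so IP was 8.31-fold shallower. With each group counted as 1 sample, no p-value is given, and the intervals below are 95% intervals that cover counting error only.

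The pulldown library was dominated by a few transcripts. The most abundant transcript alone held 8.97% of the IP counts (exact interval 8.89% to 9.04%), and the first 10 held 26.6%. The first 10 of the input held 8.28% of its counts. Further down the ranking the order turned: the first 1000 transcripts held 66.4% of IP and 82.5% of input. The first 10 of IP shared 0 transcripts with the first 10 of input, and the first 100 of each shared 30.

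**Figure D1:**
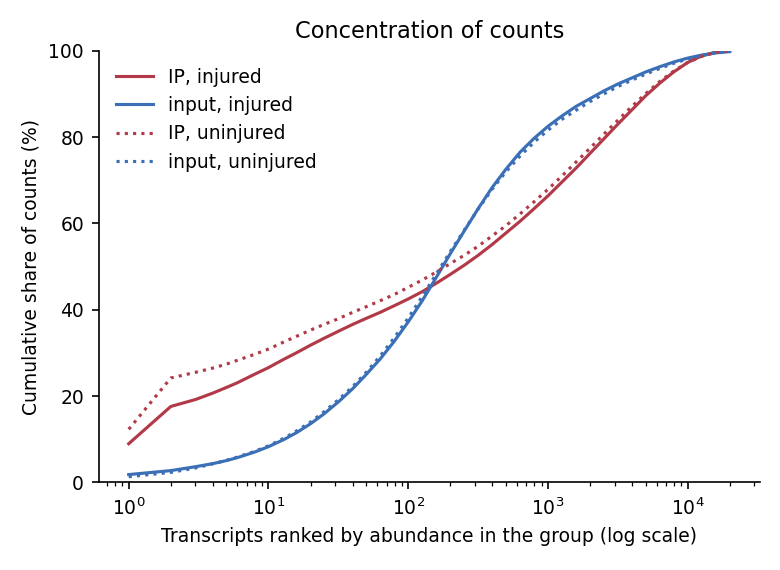
Cumulative share of counts (%) against the rank of transcripts by abundance within each group, on a log scale of rank. Lines show the sums of 3 portions for IP and input, injured (solid) and uninjured (dotted). The IP curves start higher, with 26.6% at rank 10 in injured IP against 8.28% in input, and end lower, with 66.4% against 82.5% at rank 1000.

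The 2 most abundant IP transcripts, singled out after their values were seen, behaved as a pair. In IP the first had 17054, 17098 and 17141 counts in the 3 portions, and the second had 16565, 16505 and 16551. All 3 portions of both were thus nearly equal. In input the first had 871, 762 and 565 counts, and the second 635, 781 and 973. The first was low where the second was high, and their sum was steady at 1506, 1544 and 1538 counts, so the pair is given as a sum. The pair made up 17.6% of IP and 0.0965% of input. Its share of counts was 183-fold higher in IP (177 to 188), and the fold was 55.9 (54.3 to 57.6) with TMM factors. In uninjured ganglia the pair made up 24.2% of IP and 0.0742% of input, 110-fold higher with TMM factors (106 to 113). The log2 ratio was therefore lower by 0.97 in injured ganglia, with a difference of -0.97 (-1.03 to -0.91) with TMM factors and -0.84 (-0.90 to -0.77) with library totals.

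How many transcripts counted as enriched or depleted depended on the scaling. A ratio by library totals compares each transcript's share of all counts. TMM (trimmed mean of M-values) instead rests on a mean of log2 ratios that leaves out the most extreme transcripts. Here it divided every ratio of IP to input by 3.27. Many abundant transcripts still lay far from 0 with it, as given below. Transcripts entered the comparison if IP or input, whichever was higher, had at least 10 CPM, which are counts scaled to a library of 1000000 counts. To be counted as higher or lower, a transcript needed a ratio of at least 2-fold, an interval that excluded 1 and IP portions that all lay on one side of the input portions. With TMM factors, 1649 of 9718 compared transcripts (17.0%) were higher in IP and 3786 (39.0%) were lower. With library totals, 5118 of 10568 (48.4%) were higher and 1830 (17.3%) were lower. The median log2 ratio was -0.64 with TMM factors and 1.79 with library totals. In such bulk samples, fewer cells of a type and less RNA per cell cannot be told apart.

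Since the scalings differ by 1 constant, the 1649 transcripts higher with TMM factors are by construction among those higher with library totals, and the 1830 lower with library totals among those lower with TMM factors. For 3469 transcripts that were higher by library totals alone and 1956 that were lower by TMM factors alone, the call rested on the scaling. The 1649 higher transcripts held 40.9% of the IP counts and 1.64% of the input counts. Without the leading pair they held 23.3% and 1.54%. The 3786 transcripts lower with TMM factors held 19.3% of IP and 85.8% of input. Transcripts that were compared and counted in neither direction held 34.6% of IP and 10.4% of input.

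**Figure D2:**
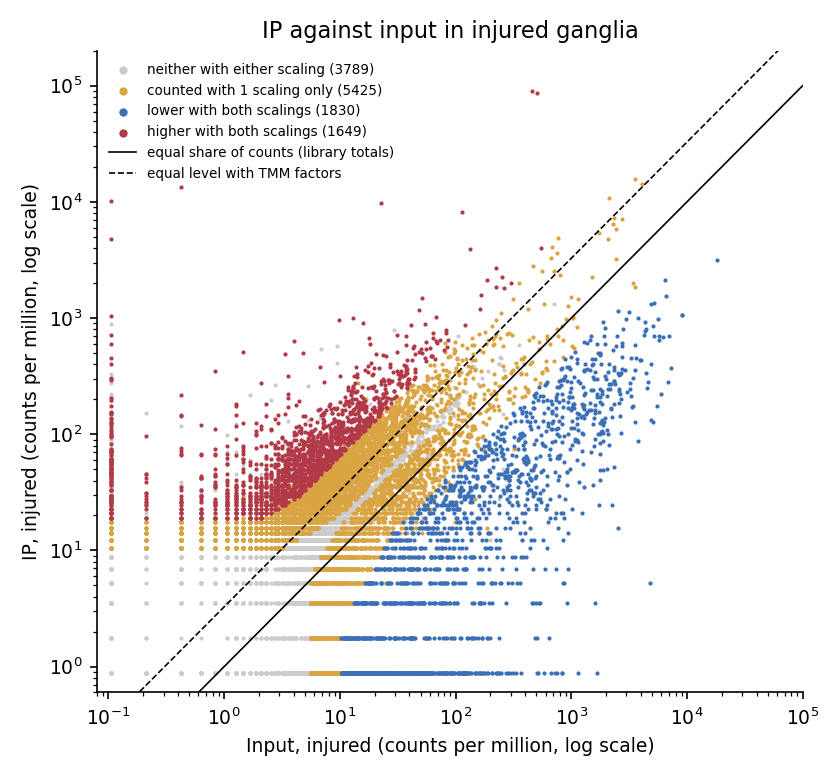
IP level against input level of each transcript in injured ganglia, in CPM of library totals on log axes, with a group at 0 drawn in the outermost row or column. Points are sums of 3 portions, drawn where the transcript was compared in either condition with TMM factors or in injured ganglia with library totals. The solid line marks equal shares and the dashed line equal levels with TMM factors. The 1649 transcripts higher with both scalings lie above the dashed line and the 1830 lower with both lie below the solid line.

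Depletion was larger than enrichment with TMM factors. The sizes here are given with TMM factors only. With library totals every ratio was 3.27-fold higher, and the order of depletion and enrichment can differ. Of the 1649 higher transcripts 753 differed at least 4-fold, and of the 3786 lower ones 2848 did. Over 100-fold higher were 18 transcripts, which held 4.37% of the IP counts. Over 100-fold lower were 141 transcripts, which held 0.150% of IP and 9.19% of input. The class between 16-fold and 100-fold lower was the heaviest in input, where 926 transcripts held 48.7% of all counts.

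The ratios of abundant transcripts had 2 peaks. Among the 1246 transcripts with a mean of at least 100 CPM over IP and input, 577 had a log2 ratio below -3 with TMM factors. Another 195 lay between -3 and -1, 251 between -1 and 1, and 223 at 1 or above. The distribution by steps of 1 log2 unit had a peak of 184 transcripts between -5 and -4 and another of 136 between 0 and 1. Between them it dipped to 97 transcripts between -2 and -1. Scaling shifts this distribution as a whole and leaves its shape as it is. A transcript high in IP or input alone passes a mean of 100 CPM. This choice can favour ratios away from equal shares, and its part in the 2 peaks was not tested.

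The share of depleted transcripts was highest among abundant ones. A log2 ratio below -3 was found in 35% of the 745 transcripts with a mean of 100 to 300 CPM, 60.4% of the 346 at 300 to 1000 CPM and 69% of the 155 at 1000 CPM and over. In the class with a mean of 20 to 50 CPM, 23.9% of 2854 transcripts were higher in IP and 27.4% lower, with a median log2 ratio of 0.16. In the class of 1000 CPM and over, 9.68% of 155 transcripts were higher and 78.1% lower, with a median of -4.29. With library totals the medians of these classes were 1.87 and -2.58. The other 4423 compared transcripts had a mean below 20 CPM, and of these 10.4% were higher and 41.4% lower, with a median of -1.22. The share of lower transcripts did not rise steadily over the whole range. Since the classes use the same counts as the ratios, the transcripts were also classed by their mean level in uninjured ganglia. These share no sample with the injured ones, which removes shared counting error only. The mean again includes input, so an abundant class can be entered through a high input level alone. The median injured log2 ratio was then 0.08 at 20 to 50 CPM (2805 transcripts) and -4.33 at 1000 CPM and over (150 transcripts).

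**Figure D3:**
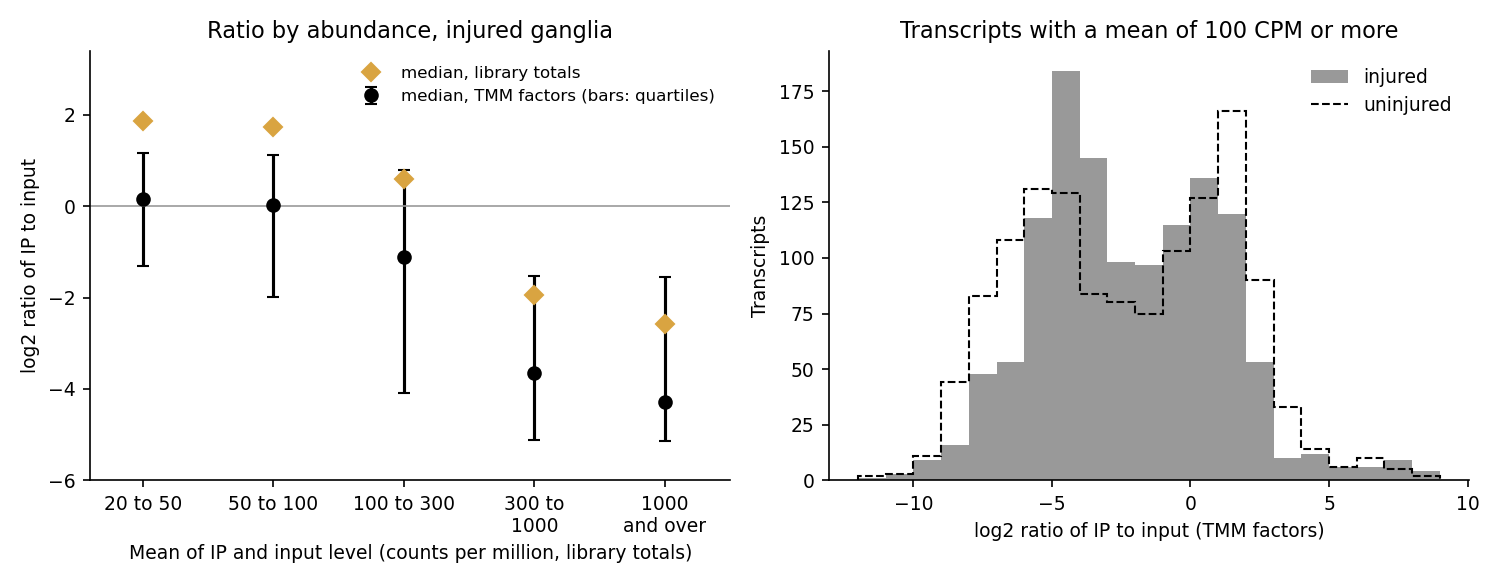
Left, the log2 ratio of IP to input in injured ganglia by class of mean abundance (CPM), with medians for TMM factors (black, bars from the lower to the upper quartile) and for library totals (yellow). The black medians go from 0.16 to -4.29. Right, the number of transcripts per log2 unit among those with a mean of 100 CPM or more, from -12 to 9, for injured (grey) and uninjured (dashed) ganglia. Both show 2 peaks, in injured ganglia between -5 and -4 and between 0 and 1.

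Lists ranked in uninjured ganglia, whose samples enter the injured ratios only through the TMM factors, were compared next. A list chosen for a high level in input or in IP favours ratios toward that fraction, also when other samples are used. The values beside those of all compared transcripts are therefore descriptive. Of the 100 most abundant transcripts of uninjured input, 91 were lower in injured IP than in injured input with TMM factors and 90 with library totals, beside 39.0% and 17.3% of all compared transcripts. Of the 1000 most abundant, 891 were lower with TMM factors and 735 with library totals. By uninjured mean level, 71.8% of transcripts at 300 to 1000 CPM and 79.3% at 1000 CPM and over were lower with TMM factors. The 100 most abundant transcripts of uninjured IP made up 40.2% of injured IP and 9.13% of injured input. Of these, 41 were higher with TMM factors and 79 with library totals, beside 17.0% and 48.4% of all compared transcripts, and 17 and 9 were lower. Of the 100 most abundant transcripts of injured IP itself, 32 were higher and 34 lower with TMM factors.

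ENSMUST00000196608.2, the fifth most abundant transcript in IP, had the highest computed ratio. This ratio rests on 2 input counts, and its order against transcripts with 0 input counts, whose ratios are lower bounds, is not settled. It had 2581, 2547 and 2565 counts in the IP portions and 1, 0 and 1 in the input portions. IP was far above input in every portion. The ratio was 9773-fold higher in IP with TMM factors (2704 to 80711) and 31973-fold with library totals (8848 to 264062). In uninjured ganglia it had 3011 counts in IP and 0 in input, at least 2676-fold higher against a floor of 3 counts for the summed group, with a lower interval end of 2175.

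ENSMUST00000109262.8 had the next highest computed ratio, with 1932, 1934 and 1922 counts in the IP portions and 0 in each input portion. It was at least 4901-fold higher in IP against the floor with TMM factors, with a lower interval end of 3984. With library totals it was at least 16035-fold higher. In uninjured ganglia its 1429 IP counts and 5 input counts gave a 762-fold ratio with TMM factors (326 to 2351). Its share of IP was higher in all 3 injured portions, at 10078 to 10145 CPM of library totals, than in the uninjured ones, at 2166 to 2382 CPM.

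The lowest computed ratio was that of ENSMUST00000177513.2, which ranked 22 in input. Its input portions had 7381, 7669 and 7673 counts and its IP portions 0, 3.2 and 0. It was near 0 in every IP portion. The ratio was 2981-fold lower in IP with TMM factors (1020.0 to 14457) and 911-fold with library totals (312 to 4419). Without the first or the third IP portion the fold with TMM factors was 1938 and 1962. Without the second, 0 IP counts were left, and the fold was at least 1951 against the floor. In uninjured ganglia it had 19424 input counts and 0 IP counts.

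ENSMUST00000163992.3 had the next lowest computed ratio, with 2550, 2507 and 2643 counts in the input portions and 1.26, 1.13 and 0 in the IP portions. IP again did not approach input in any portion. It was 1515-fold lower in IP with TMM factors (419 to 12515) and 463-fold with library totals (128 to 3825). Without the third IP portion, which had 0 counts, the fold with TMM factors was 998. Its place is not settled, since a transcript with 0 IP and 7976 input counts was at least 1046-fold lower against the floor. In uninjured ganglia the 2 IP counts and 4577 input counts gave an 858-fold lower ratio with TMM factors (237 to 7089).

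**Figure D4:**
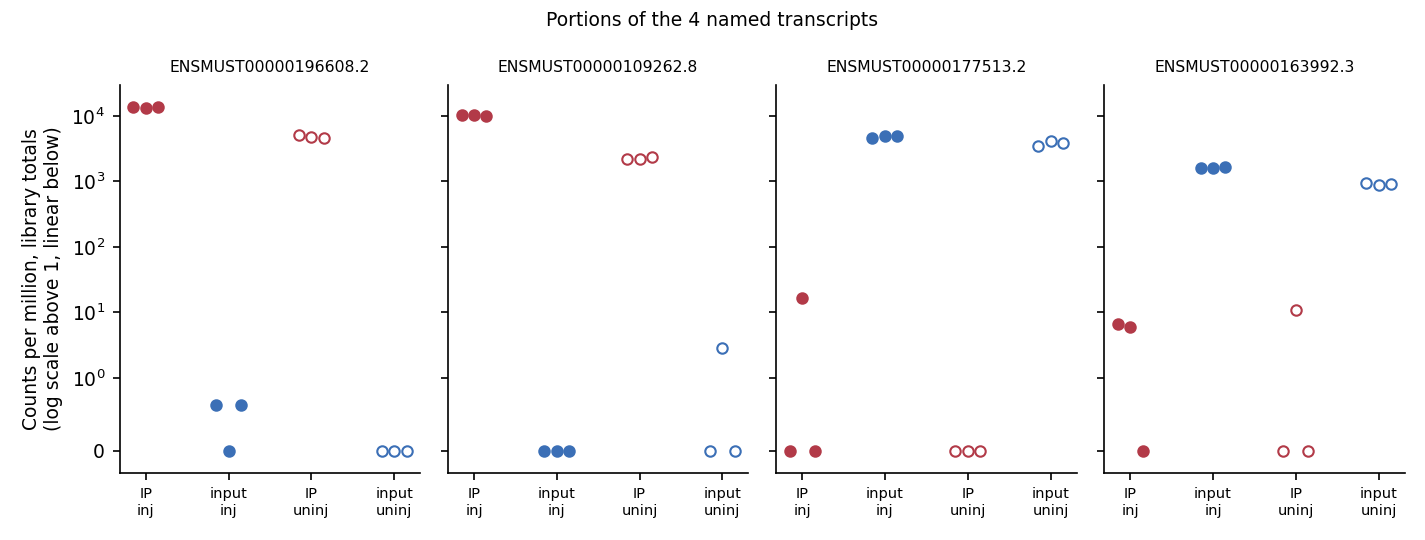
CPM of library totals in each portion of the 4 named transcripts, on an axis that is logarithmic above 1 and linear below. Red marks IP and blue input, filled points are injured and open points uninjured ganglia, and the 3 points of a group are its portions. The first pair stands at 2166 CPM or more in all IP portions and at 2.89 CPM or less in all input portions, and the second pair stands at 884 CPM or more in all input portions and at 16.8 CPM or less in all IP portions.

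The extremes were largely the same kind in uninjured ganglia. Among the 20 highest ratios, 12 had 0 input counts, IP counts ranged from 55 to 7693, and 15 were also counted as higher in uninjured ganglia. Among the 20 lowest, 6 had 0 IP counts, input counts ranged from 1127 to 22723, and 20 were also counted as lower in uninjured ganglia. The portions of the more abundant fraction agreed within counting noise (chi-square p above 0.01) in 17 of the 20 highest and 10 of the 20 lowest.

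Some transcripts were found in 1 fraction only. With 0 input counts and at least 10 IP counts there were 272 transcripts, which held 3.26% of IP, and a count of 0 in input allows a share of up to 6.31e-05%. Of these, 114 were counted as higher, beside 17.0% of all compared transcripts, and 149 had an IP portion at 0 as well. The choice of transcripts with 0 input counts fixes the direction of any call. In uninjured ganglia 76 of them again had 0 input counts and at least 10 IP counts. With 0 IP counts and at least 100 input counts there were 290 transcripts, which held 2.69% of input. At an equal share 100 input counts correspond to 12 IP counts, and a count of 0 in IP allows a share of up to 0.000525%. Of the 290, 264 were counted as lower, beside 39.0% of all compared transcripts, and 191 had 0 IP counts in uninjured ganglia too. Here too the direction of a call is fixed by the choice.

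Ratios in injured ganglia followed those in uninjured ganglia closely, though the 2 comparisons share no sample. Across 4802 transcripts that were compared in both and reached 10 counts in each of the 4 groups, the log2 ratios correlated at 0.911 (Pearson r) and 0.844 (Spearman rho). Transcripts of 1 gene can share reads and are not independent, and all share the scaling factors. Of the 1421 higher transcripts compared in both conditions, 980 (69.0%) were also higher in uninjured ganglia, where 19.6% of all compared transcripts were higher. Of the 3412 lower ones, 2985 (87.5%) were also lower there, where 39.8% were lower. Counted as higher in injured and in neither direction in uninjured ganglia were 432 transcripts, and the difference between the 2 log2 ratios was itself at least 1 with an interval that excluded 0 for 95 of them. For the 415 counted as lower in injured ganglia and in neither direction in uninjured ganglia, this held for 56. Such a difference was counted only where each of the 4 groups reached 10 counts. Members of either set below that could not be among the 95 or the 56, and their number is not given.

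The spread of ratios was narrower in injured ganglia. The SD of the log2 ratio over the 4802 transcripts was 1.85 in injured and 2.12 in uninjured ganglia. The difference between injured and uninjured was computed for the 4928 transcripts that reached 10 counts in each of the 4 groups, and its median was 0.04 with TMM factors and 0.17 with library totals. In 539 transcripts (10.9%) the injured ratio was higher and in 460 (9.33%) it was lower, by at least 1 log2 unit with an interval that excluded 0.

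The difference changed along the range of ratios. Transcripts were ordered by the mean of both log2 ratios, which treats the conditions alike. Among the 311 with a mean below -4, the median log2 ratio was -4.61 in injured and -5.41 in uninjured ganglia. The median difference was 0.87 (quartiles 0.32 to 1.27), and 268 of 311 had a higher ratio in injured ganglia. Counted by the rule above, 124 of the 311 were higher and 6 lower. With library totals the median difference was 1.01, and 155 were higher and 4 lower. At the other end, the 364 transcripts with a mean of 2 and over had a median of 2.28 in injured and 2.61 in uninjured ganglia, with 21 counted as higher and 62 as lower. Their median difference was -0.36 (quartiles -0.85 to 0.19) with TMM factors and -0.22 with library totals, where 25 were higher and 51 lower. Ratios far from 0 in either direction were thus on the whole nearer to 0 in these injured samples, more so at the depleted end. Only transcripts with at least 10 counts in each group enter here. This leaves out the extremes with few counts in a group, such as ENSMUST00000163992.3, which was 1515-fold lower in injured and 858-fold lower in uninjured ganglia, and ENSMUST00000109262.8, which was at least 4901-fold and 762-fold higher. Leaving out any 1 of the 12 portions left the median difference of the most depleted class between 0.79 and 0.97. With the 3 samples of a group counted as 1, injury and the individual pulldown cannot be told apart.

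**Figure D5:**
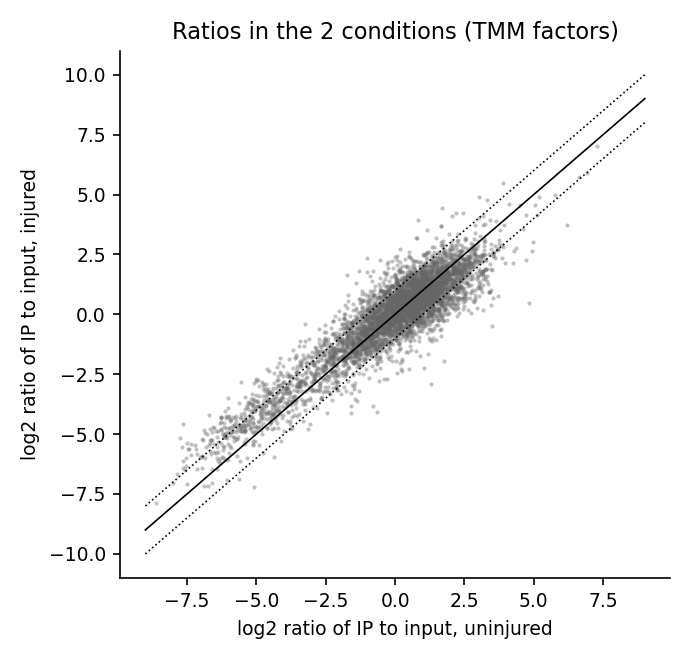
The log2 ratio of IP to input in injured ganglia against that in uninjured ganglia, with TMM factors (1 point per transcript). Shown are the 4802 transcripts that were compared in both conditions and reached 10 counts in each of the 4 groups. The solid line marks equal ratios and the dotted lines a difference of 1 log2 unit. Points at the lower left lie mostly above the solid line. Among all 4928 transcripts with 10 counts in each group, 311 had a mean log2 ratio below -4. Of these, 268 had a higher ratio in injured ganglia.

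Single portions gave nearly the same balance as the sums. A 2-fold difference of either direction between an IP and an input portion was seen in 65.4% to 66.5% of the 9718 compared transcripts over the 9 pairs of portions, with 1 CPM added to each level. It was seen in 26.3% to 26.9% between 2 IP portions and in 15% to 15.7% between 2 input portions. In 635 compared transcripts a group had a portion at 0 beside another of at least 20 counts. Of these, 73 (11.5%) were counted as higher or lower, against 55.9% of all compared transcripts. A portion at 0 in the higher group bars any call, so this lower share is in part fixed by the rule.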

How the data were processed

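Values were deposited by the authors as estimated counts per Ensembl transcript ID, which need not be whole. Per the labels' protocols, the sequencing libraries were cDNA-PCR barcoding libraries for nanopore reads. The submitters' processing notes name minimap2, Salmon and the build names GRCm39 and mm39. The sources used here do not give versions, roles or settings.

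The 3 samples of each group were summed and rounded to whole numbers. TMM factors came from edgeR 4.0.16 (R 4.3.3), from the sums of all 4 groups over transcripts that passed filterByExpr, and library sizes were totals over all transcripts. Ratios carry exact conditional intervals by the Clopper-Pearson method, and those of differences between ratios use a normal approximation on the log scale. Reads of PCR products that carry no molecular identifier may copy 1 molecule, so all intervals cover counting error only. Named transcripts are the 2 largest ratios counted in each direction. Fits with the samples as replicates used edgeR's quasi-likelihood test and DESeq2 1.42.0, at an adjusted p under 0.05 and a 2-fold change. Their p-values would measure only the spread between these samples, which may be technical. The comparison, lists and tests were chosen with earlier results of these data known. Sums per gene and gene lists were not analysed here.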

Additional observations from a re-analysis of the deposited data

Results flagged for a closer look

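With TMM factors, 9 transcripts were at least 2-fold above input in injured IP but at least 2-fold below it in uninjured IP. Every portion lay on the same side. The reverse held for 12 transcripts. Directions can change with the scaling, and those with library totals are not given. These 21 were picked out because the 2 conditions went in opposite directions, and the difference was not tested across animals. Their counts were low, with 0 to 117 in injured IP and at most 87 in uninjured IP, and for 15 of them none of the 4 groups had portions that differed beyond counting noise.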

How the results depend on the processing

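Scaling decided the balance of directions. Of the counted transcripts, 30.3% were higher with TMM factors (1649 higher, 3786 lower), 37.1% with TMM over the compared groups alone, 31.0% with DESeq2 size factors and 73.7% with library totals (5118 higher, 1830 lower). With factors shifted so that the median log2 ratio of the compared transcripts was 0, a setting chosen after seeing the data, 3037 were higher and 50.2% of the counted ones. At a 4-fold threshold with TMM factors 3601 were counted, 753 of them higher (20.9%). With the 3 samples as replicates, edgeR counted 4129 of 7171 transcripts (2504 lower). With the replicate number as a block it counted 3725 of 7171 (2342 lower). DESeq2 counted 3410 of 11859 (863 higher), beside 5435 of 9718 reported. Same-numbered samples of IP and input deviated together with r of -0.136 to 0.11 and differently numbered ones with -0.178 to 0.255, so the numbers were not taken as pairs, and not every sample correlated best with its own number. Leaving out 1 portion gave 5559 to 5644 counted (5435 reported), 26.6% to 26.7% for the first 10 IP transcripts, and 820 to 996 differences between conditions (999 reported), 45.8% to 62.0% of them higher. With library totals 65.6% of these differences were higher, against 54.0% with TMM factors. The count of differences was 304 with at least 30 counts in all 4 groups and 649 with agreeing portions alone (chosen after seeing the data), where fewer transcripts were compared. Transcripts with whole values (within 0.01) in all 6 samples, also chosen after seeing the data, gave 839 counted, 579 higher and 260 lower (69.0% higher), and the cause was not tested. Depth limits IP, where 10 CPM with TMM factors is 10.4 counts. Gene sums and gene lists were not run.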

Other observations

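Values that are not whole were more frequent in input, with 48.5% to 49.1% of the detected transcripts of a portion, than in IP, with 22.8% to 23.2%. Among the 1798 compared transcripts whose 6 values were all whole, a subset chosen after seeing the data, 69.0% of the counted ones were higher in IP. Among the other 7920, 23.3% of the counted ones were. The whole-valued transcripts were less abundant, with a median of 15.4 CPM over IP and input against 25.7, and they held 6.18% of IP and 1.19% of input. At 50 to 100 CPM 61 of 84 whole-valued transcripts were higher and 0 lower, beside 240 and 408 of 1111 others. The part of abundance in this difference was not tested.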
